A study of Homo sapiens with 4 samples.

Results

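The 42 genes described here encode the machinery of mitosis: kinases and cyclins that start division, the spindle checkpoint, the kinetochore, the spindle itself and the ring that splits the daughter cells. They were taken by name as a list of mitotic kinase, kinetochore, spindle and cytokinesis genes and matched to the Ensembl identifiers of the deposited table. The matching reads no measured value, but the list was chosen with earlier results of these data known. All 42 were among the 50653 genes listed, and all 42 had a mean of at least 1 FPKM (fragments on a gene scaled by transcript length and library size), as did 14321 genes in all. The study silenced QPRT, the quinolinate phosphoribosyltransferase that feeds the de novo synthesis of NAD+, in BT-20 and MDA-MB-468, both human breast cancer cell lines of the triple-negative class, established in culture. A lentiviral vector carried a short hairpin RNA (shRNA), a control one or one against QPRT, and cells that had stably taken it up were kept by puromycin selection. All 4 groups therefore share a vector and its drug selection, and each group is 1 library from 1 selected culture, with no replicate. QPRT mRNA itself stood at 117 FPKM (control) and 18.3 FPKM (QPRT shRNA) in MDA-MB-468, and at 249 and 40.5 in BT-20, log2 differences of -2.62 and -2.59.

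A dividing cell condenses its chromosomes, attaches each one to spindle microtubules through its kinetochore, waits at a checkpoint until every attachment is made, and then pulls the copies apart and divides. Cyclin-dependent kinase 1, Polo-like kinase 1 and the Aurora kinases drive these steps by phosphorylation, and the anaphase-promoting complex ends them by marking cyclin B for destruction. Most genes of this machinery are transcribed in the G2 and M phases and are silent in resting cells, so their mRNA is a common measure of how many cells in a culture are dividing. In RNA from a whole culture, fewer dividing cells and less mRNA per dividing cell cannot be told apart. By a separate viability assay the paper reported no harm to growth from QPRT depletion in these lines. How that result relates to the mRNA levels below was not tested.

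Transcription of these genes late in the cell cycle runs through promoter elements shared by many of them, so the promoters of 4 members are shown: 2 whose mRNA was lower with QPRT shRNA in both cell lines (PLK1 and CCNB2) and 2 whose mRNA was higher in BT-20 and lower in MDA-MB-468 (INCENP and KIF11). Each is the 130 bases before the RefSeq start on the plus strand of GRCh38.p14, written 5′ to 3′. Capitals mark the cell cycle genes homology region (CHR, searched as TTTGAA), through which MuvB complexes act, and the CCAAT box (searched as CCAAT), which binds the factor NF-Y. A match on the opposite strand reads TTCAAA or ATTGG.
PLK1 (chr16:23678759-23678888): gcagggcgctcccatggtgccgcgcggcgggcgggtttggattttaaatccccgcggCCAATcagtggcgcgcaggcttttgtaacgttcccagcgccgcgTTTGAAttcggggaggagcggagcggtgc
CCNB2 (chr15:59105016-59105145): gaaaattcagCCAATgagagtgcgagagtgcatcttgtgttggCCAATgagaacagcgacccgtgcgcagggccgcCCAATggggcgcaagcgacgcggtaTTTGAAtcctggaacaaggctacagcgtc
INCENP (chr11:62123881-62124010): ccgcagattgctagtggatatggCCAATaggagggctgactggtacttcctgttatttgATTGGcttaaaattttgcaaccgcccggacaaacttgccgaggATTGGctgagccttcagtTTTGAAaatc
KIF11 (chr10:92593000-92593129): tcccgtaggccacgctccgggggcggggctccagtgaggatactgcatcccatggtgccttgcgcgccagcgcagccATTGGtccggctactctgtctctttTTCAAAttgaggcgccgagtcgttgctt
The PLK1 stretch held 1 CCAAT box and 1 CHR on the plus strand, with the CHR starting 29 bases before the start. In CCNB2 the CHR began at the same distance, 29 bases, downstream of 3 CCAAT boxes. INCENP held 3 CCAAT boxes, 2 of them on the minus strand, and a CHR 10 bases before the start. KIF11 held both elements on the minus strand.

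RefSeq listed 41 promoters of 300 bases (250 before and 50 after the start) for 35 of the 42 members, and AURKA, BIRC5, FOXM1, RACGAP1, TPX2, TTK and UBE2C had no entry. A CHR on either strand was found in 30 of the 41, or 73.2%, against 15.2% of the 35116 promoters listed. A CCAAT box was found in 31, or 75.6%, against 34.6%, and both together in 25, or 61.0%, against 5.90%. A CHR and a CCAAT box can overlap by at most 1 base, and CCAAT boxes on opposite strands can overlap each other, as in HMMR. Members were also grouped by these elements, as a description, to set out their difference in log2(FPKM + 1), QPRT minus control shRNA. In MDA-MB-468 its median was -0.49 for the 27 members with a CHR and -0.46 for the 8 without, and in BT-20 the medians were -0.01 and -0.05. Members with a CCAAT box (28) had medians of -0.45 in MDA-MB-468 and -0.06 in BT-20, and the 7 without one had -0.51 and 0.01.

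The FPKM values of the 4 libraries were scaled to totals of between 10321987 and 10945931 fragments, as worked out from the values themselves. Epithelial markers (EPCAM, KRT8, KRT18, CDH1 and KRT19) summed to between 5383 and 9590 FPKM, ESR1 was at or below 5.76 FPKM, PGR was listed at 0 in every library, and ERBB2 ranged from 50.7 to 129 FPKM. A list of 18 intestinal epithelium genes was also detected, at a summed 47.0 FPKM (control) and 22.9 FPKM (QPRT shRNA) in BT-20 cells, and 122 and 32.7 in MDA-MB-468, with 15 of the 18 lower in both lines. Its defining transcription factors were close to 0 (CDX2 between 0.04 and 0.35 FPKM, CDX1 at or below 0.18). A gastric list of 9 genes summed to 17.1 and 5.16 FPKM in BT-20 cells and 38.4 and 5.64 in MDA-MB-468, with 8 lower in both. Immunoglobulin mRNA was detected too, with IGHA1 at 19.6, 8.41, 46.1 and 8.02 FPKM in BT-20 control, BT-20 QPRT, MDA-MB-468 control and MDA-MB-468 QPRT shRNA. The whole plasma cell list of 10 genes summed to 435, 375, 651 and 489 FPKM, most of it from SDC1 and XBP1, with 8 genes lower in both lines. T cell, macrophage and fibroblast markers (11 genes) summed to 39.8, 22.3, 32.9 and 17.4 FPKM, with 6 lower in both, CD2 listed at 0 throughout and CD3D at or below 0.19. MDA-MB-468 with control shRNA thus held both the most mRNA from the intestinal, gastric and plasma cell lists and, as given next, the highest level of most mitosis genes; the part of these RNAs in the results below was not tested.

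With control shRNA the 42 genes were expressed at a median of 37.9 FPKM in BT-20 cells and 43.4 in MDA-MB-468. With QPRT shRNA the medians were 36.9 and 33.3. Their summed level, as a share of all FPKM in the library, was 0.246% in BT-20 control, 0.228% in BT-20 QPRT, 0.308% in MDA-MB-468 control and 0.232% in MDA-MB-468 QPRT shRNA. The highest of the 4 values belonged to MDA-MB-468 control shRNA for 31 members, to BT-20 control for 9, to BT-20 QPRT for 2 and to MDA-MB-468 QPRT for 0. The lowest belonged to MDA-MB-468 QPRT for 20, BT-20 QPRT for 12 and BT-20 control for 10. Per length the most abundant member was UBE2C, the E2 enzyme of the anaphase-promoting complex, in both BT-20 libraries and CDC20, its activator, in both MDA-MB-468 libraries.

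**Figure D1:**
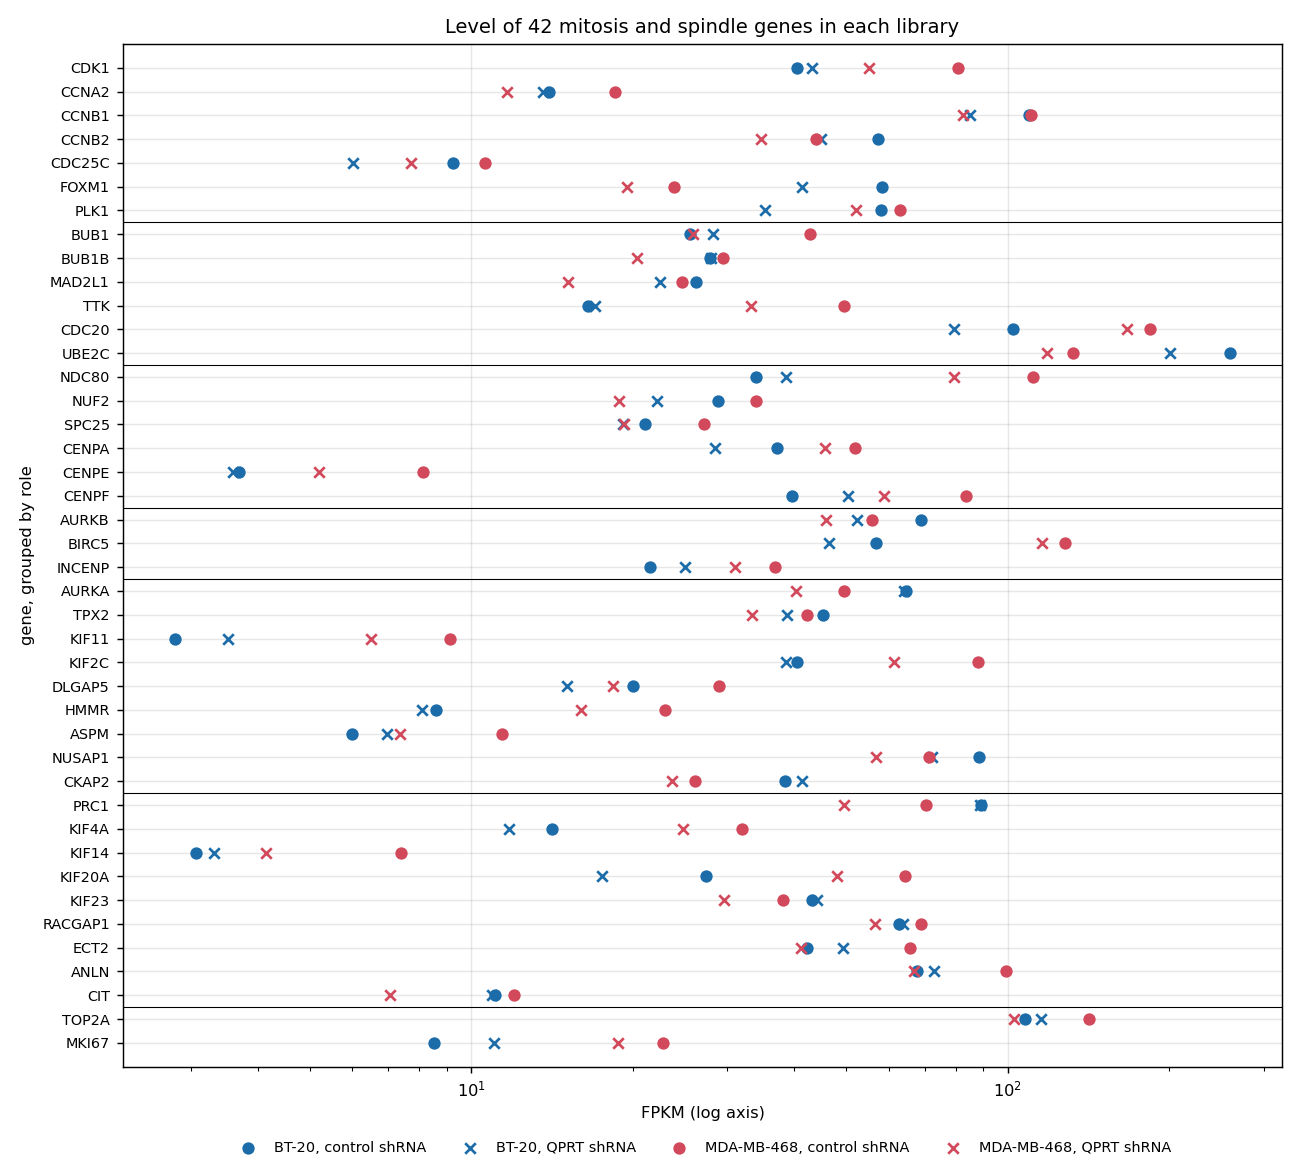
FPKM on a log axis of each of the 42 genes, in rows grouped by role, with 1 point per library (circles for control shRNA, crosses for QPRT shRNA, blue for BT-20, red for MDA-MB-468). The red crosses lie left of the red circles in all 42 rows, while the blue crosses lie left of the blue circles in 25 rows.

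The first question was how these genes differed between QPRT and control shRNA in each line. In MDA-MB-468 every one of the 42 members had a lower value with QPRT shRNA, against 47.6% of all genes tested. The median difference of log2(FPKM + 1), QPRT minus control shRNA, was -0.45, against 0.01 for all genes. Single members ran from -0.81 for NUF2 to -0.14 for CKAP2, so the shift was spread over the list and small for each gene. None reached 2-fold, which 1.89% of all genes did in either direction. At least 1.5-fold lower were 8 members (NUF2, KIF14, BUB1, CIT, MAD2L1, ECT2, DLGAP5 and CCNA2), against 3.71% of all genes. Whole fragments could be recovered for 38 members (all but MKI67, CDC25C, ASPM and KIF23), and for 37 of them the exact Clopper-Pearson 95% interval of the ratio lay below 0 on the log2 scale. CKAP2 was the exception, with an interval from -0.32 to 0.03. These intervals cover counting error only, not the spread between cultures, which 1 library per group does not show. How many of all genes had intervals off 0 in either line was not counted. Such intervals are narrower at higher levels, and the median of the mean FPKM was 39.0 for the members and 15.4 for all genes.

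In BT-20 the same genes split. With QPRT shRNA 25 members had lower values and 17 higher ones, against 43.0% of all genes lower, and the median difference was -0.03 against 0.05 for all genes. Scaling the libraries to TPM, which sets the same total of length-scaled values in each library, turned that median to 0.01, with 20 members lower, and moved the median of all genes alike, to 0.09. Members ran from -0.70 for PLK1 to 0.34 for CENPF and MKI67, and 2 of them (PLK1 and KIF20A) were at least 1.5-fold lower, against 3.27% of all genes. None reached 2-fold, which 1.70% of all genes did. The counting interval lay below 0 for 16 of the 38 members with whole fragments and above 0 for 5 (CENPF, INCENP, KIF11, ECT2 and TOP2A).

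The 25 members lower in BT-20 were lower in MDA-MB-468 too, so 25 of 42 were lower in both lines, against 17.7% of all genes, and 17 were higher in BT-20 and lower in MDA-MB-468. For 32 members the difference was more negative in MDA-MB-468 than in BT-20. Across the 42 genes the differences in the 2 lines had a Spearman correlation of -0.29, a description over genes that share the same 4 libraries. In limma over both lines, blocked on cell line, with 1 residual degree of freedom, 0 of the 42 passed an adjusted p of 0.05 for the knockdown, against 0.628% of all genes. At an unadjusted p under 0.05 there were 4 (NUF2, KIF20A, DLGAP5 and PLK1), against 687 of all 14321 genes. On the recovered fragments limma-voom also gave 0 calls and 4 at an unadjusted p under 0.05, against 597 of 14232 genes. The lowest value in limma was that of NUF2, with a mean log2 difference of -0.59 (SE 0.226, adjusted p = 0.535, lower in 2 of 2 cell lines).

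**Figure D2:**
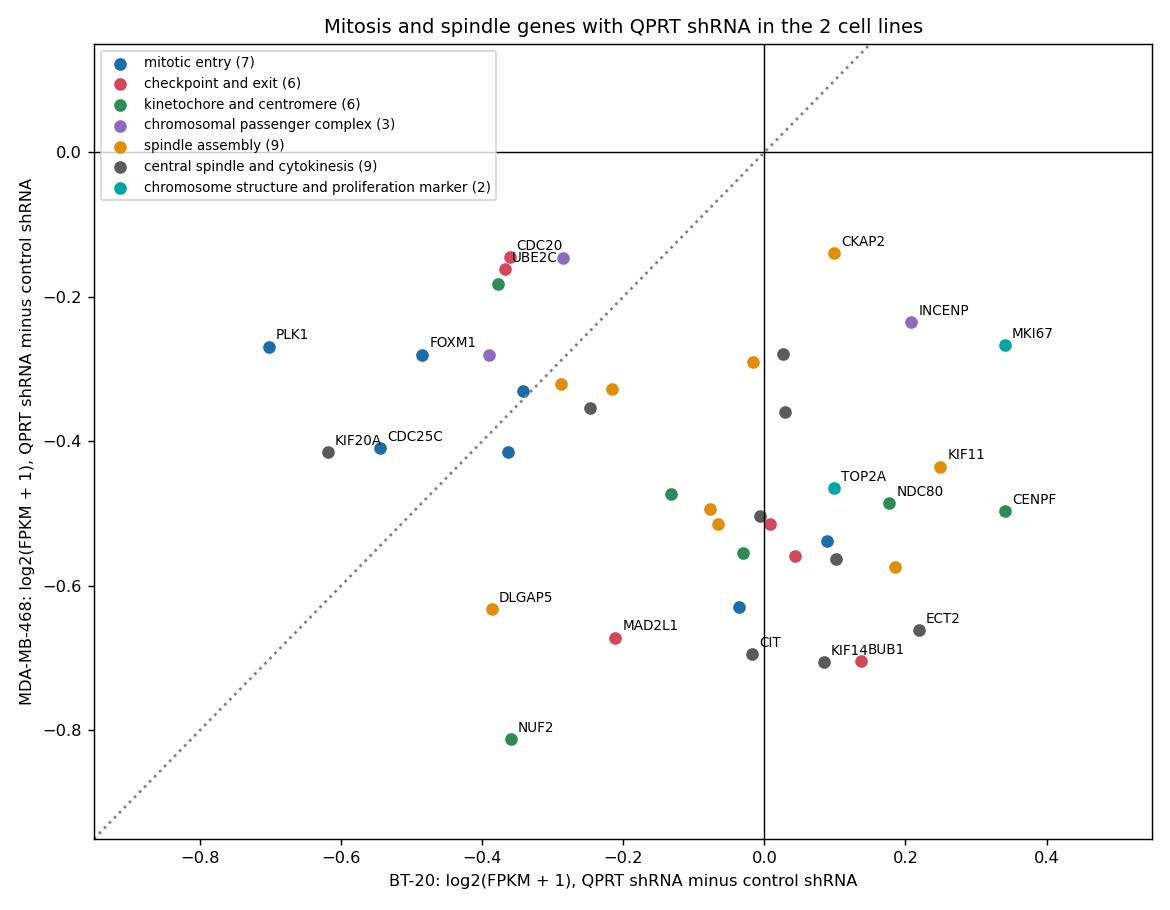
Difference in log2(FPKM + 1), QPRT minus control shRNA, of each of the 42 genes in BT-20 (horizontal axis) and MDA-MB-468 (vertical axis), 1 point per gene coloured by role, with the dotted line marking equal differences. All points lie below 0 on the vertical axis, from -0.81 to -0.14, and they spread to both sides of 0 on the horizontal axis, from -0.70 to 0.34.

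Genes of mitotic entry had low medians in both lines, at -0.36 in BT-20 (6 of 7 lower) and -0.41 in MDA-MB-468 (7 of 7 lower). PLK1, Polo-like kinase 1 (chromosome 16: 23677656 to 23690367, plus strand, GRCh38), stood at 58.01 FPKM (control) and 35.3 FPKM (QPRT shRNA) in BT-20 cells, and at 62.99 and 52.1 in MDA-MB-468. Its counting intervals were -0.89 to -0.55 in BT-20 cells and -0.42 to -0.12 in MDA-MB-468, which do not overlap, and the difference was larger in BT-20. CCNB1, the cyclin B1 that activates CDK1, went from 109.6 to 85.03 FPKM in BT-20 cells and from 110.3 to 82.5 in MDA-MB-468. Its relative CCNB2 gave 57.2 and 44.9, then 43.9 and 34.7. Both cyclins B thus had close to the same difference in the 2 lines, at -0.36 and -0.42 for CCNB1 and -0.34 and -0.33 for CCNB2. FOXM1, a transcription factor of G2 and M phase genes, had 58.3 and 41.4 FPKM in BT-20 cells and 23.9 and 19.5 in MDA-MB-468, so both BT-20 values lay above both MDA-MB-468 values. CDC25C, the phosphatase that switches CDK1 on, had 9.26 and 6.03, then 10.6 and 7.74. As deposited, CDK1 itself was the member that parted from this pattern, at 40.5 and 43.1 FPKM in BT-20 cells and 80.6 and 55.2 in MDA-MB-468. Its BT-20 counting interval spanned 0, from -0.07 to 0.25. With the GC content and length trend given below removed, its BT-20 difference was -0.06, and 7 of 7 genes were lower there. CCNA2, cyclin A2, acts in S phase and in early mitosis. As deposited it was close to level in BT-20 at 13.97 and 13.6 FPKM, and had 18.6 and 11.6 in MDA-MB-468, a difference of -0.63. Without the trend its difference was -0.51 for MDA-MB-468 cells and -0.22 for BT-20 cells, so BT-20 was no longer close to level.

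Among the 6 genes of the spindle checkpoint and mitotic exit the median difference was -0.10 in BT-20 cells and -0.54 in MDA-MB-468. CDC20, which activates the anaphase-promoting complex once the checkpoint is satisfied, had 102 and 79.5 FPKM in BT-20 cells and 184 and 167 in MDA-MB-468. UBE2C had 259 and 201 in BT-20 cells and 132 and 118 in MDA-MB-468. As deposited both were further apart in BT-20, at -0.36 and -0.37, than in MDA-MB-468, at -0.14 and -0.16. With the GC content and length trend given below removed, the lines were level, at -0.24 and -0.23 for CDC20 and -0.21 and -0.22 for UBE2C. The checkpoint kinase BUB1 had 25.6 and 28.2 FPKM in BT-20 cells and 42.9 and 25.9 in MDA-MB-468. Its value in MDA-MB-468 with QPRT shRNA was close to that of BT-20 with control shRNA. MAD2L1, the MAD2 protein that holds CDC20 inactive, had 26.2 and 22.5 in BT-20 cells and 24.7 and 15.1 in MDA-MB-468. BUB1B (BUBR1) and TTK (MPS1), both checkpoint proteins of the kinase family, were almost level in BT-20 (0.01 and 0.04) and lower in MDA-MB-468 (-0.51 and -0.56).

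The 6 kinetochore and centromere genes had medians of -0.08 in BT-20 cells and -0.49 in MDA-MB-468. The NDC80 complex, which grips the microtubule, is represented by NDC80, NUF2 and SPC25. NUF2 (chromosome 1: 163266576 to 163355764, plus strand, GRCh38) had 28.8 and 22.2 FPKM in BT-20 cells and 33.9 and 18.9 in MDA-MB-468, and both counting intervals lay below 0. NDC80 had 33.98 and 38.5 in BT-20 cells and 112 and 79.5 in MDA-MB-468, so the lower MDA-MB-468 value was still above both of BT-20. SPC25 differed by -0.13 in BT-20, with an interval that spans 0, and by -0.47 in MDA-MB-468. The BT-20 interval of NDC80 spans 0 as well, from -0.04 to 0.40, and in MDA-MB-468 all 3 subunits had intervals below 0. CENPF, a large protein of the outer kinetochore, had 39.6 and 50.46 FPKM in BT-20 cells and 83.5 and 58.9 in MDA-MB-468, with intervals of 0.23 to 0.47 and -0.60 to -0.41. As deposited, the kinesin CENPE was level in BT-20 at 3.70 and 3.60 FPKM and had 8.13 and 5.22 in MDA-MB-468. Its difference was -0.39 for MDA-MB-468 cells and -0.31 for BT-20 cells once the GC content and length trend given below was removed. The lines were then closer to each other. CENPA, the histone H3 variant that marks the centromere, differed more in BT-20 (-0.38) than in MDA-MB-468 (-0.18).

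The chromosomal passenger complex, which corrects wrong attachments and later guides cytokinesis, had a median of -0.23 in MDA-MB-468 and -0.29 in BT-20 over AURKB, BIRC5 and INCENP. With the GC content and length trend given below removed, the medians were -0.33 in MDA-MB-468 and -0.20 in BT-20, so the order of the lines reversed. AURKB, its kinase, had 68.9 and 52.4 FPKM in BT-20 cells and 55.9 and 45.8 in MDA-MB-468. BIRC5 (survivin) had 56.9 and 46.5, then 128 and 116. INCENP, the scaffold, had 21.5 and 25.01, then 36.8 and 31.1. The kinase and survivin were lower with QPRT shRNA in both lines, and INCENP was higher in BT-20 and lower in MDA-MB-468.

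The 9 spindle genes had medians of -0.07 in BT-20 cells and -0.43 in MDA-MB-468. AURKA, the kinase of the spindle poles, was level in BT-20 at 64.8 and 64.02 FPKM and had 49.6 and 40.3 in MDA-MB-468. TPX2, its activator, differed by -0.22 and -0.33. KIF11, the motor that pushes the poles apart, had low levels of 2.81 and 3.53 FPKM in BT-20 cells and 9.14 and 6.50 in MDA-MB-468. The microtubule depolymerase KIF2C had 40.5 and 38.7 in BT-20 cells and 88.2 and 61.5 in MDA-MB-468. DLGAP5 (HURP), which stabilises fibres at the kinetochore, was lower in both lines, with 20.04 and 15.1 FPKM in BT-20 cells and 29.02 and 18.4 in MDA-MB-468. HMMR, a spindle-binding protein, differed by -0.08 and -0.49, NUSAP1 by -0.29 and -0.32, and the spindle pole protein ASPM by 0.19 and -0.57. CKAP2, a microtubule-stabilising protein, had the smallest difference in MDA-MB-468, at 26.2 and 23.7 FPKM, and had 38.5 and 41.3 in BT-20.

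The 9 genes of the central spindle and cytokinesis had medians of 0.03 in BT-20, which turns to -0.06 once the GC content and length trend given below is removed, and -0.50 in MDA-MB-468. KIF20A, a kinesin that brings the passenger complex to the midzone, was lower in both lines, with 27.4 and 17.5 FPKM in BT-20 cells and 64.3 and 47.98 in MDA-MB-468. KIF4A, which with PRC1 sets the length of the midzone, differed by -0.25 and -0.35. PRC1, the crosslinker of midzone microtubules, was level in BT-20 at 89.3 and 88.97 FPKM and had 70.5 and 49.4 in MDA-MB-468. The same contrast ran through the genes that build the contractile ring. ECT2, the exchange factor that switches RhoA on at the cell equator, had 42.3 and 49.4 FPKM in BT-20 cells and 65.7 and 41.2 in MDA-MB-468, with counting intervals of 0.09 to 0.36 and -0.81 to -0.54. ANLN (anillin), the ring's scaffold, had 67.9 and 72.9, then 99.5 and 66.98. CIT, citron kinase, a RhoA effector needed at the end of cytokinesis, had 11.1 and 10.9, then 12.02 and 7.04. RACGAP1 and KIF23, the 2 proteins of the centralspindlin complex that recruits ECT2, differed by 0.03 and 0.03 in BT-20 cells and -0.28 and -0.36 in MDA-MB-468. KIF14, which binds citron kinase and PRC1, was at 3.07 and 3.31 FPKM in BT-20 cells and 7.39 and 4.15 in MDA-MB-468.

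TOP2A, the topoisomerase that untangles chromosomes, had 108 and 115 FPKM in BT-20 cells and 142 and 103 in MDA-MB-468. MKI67, which encodes the proliferation marker Ki-67, had 8.52 and 11.1 in BT-20 cells and 22.8 and 18.7 in MDA-MB-468. Both were higher with QPRT shRNA in BT-20 and lower in MDA-MB-468, and the 2 MDA-MB-468 values of MKI67 lay above both BT-20 values.

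The members differed in base composition, and the size of their difference followed it. Median GC content over transcripts was 44.0% for the 42 genes against 49.5% for all genes tested, and 33 members lay below the latter, while the median transcript length was alike (1529 against 1501 bases). In BT-20 the Spearman correlation of GC content with the difference was -0.46 over the 42 members and -0.28 over all genes. In MDA-MB-468 it had the opposite sign, 0.60 over the members and 0.29 over all genes. These are descriptions across genes of the same libraries. In 3 equal groups of 14 members, the median difference from lowest to highest GC content was 0.06, 0.00 and -0.36 in BT-20 cells and -0.56, -0.39 and -0.27 in MDA-MB-468. Of the 17 members higher in BT-20, 8 lay in the lowest group, 7 in the middle one and 2 in the highest.

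Once the trend of all genes on GC content and transcript length had been removed from each line, the BT-20 median moved from -0.03 to -0.16 and 34 members were lower there. In MDA-MB-468 the median moved from -0.45 to -0.38, with 41 members lower (CKAP2 was at 0.01) and 3 at least 1.5-fold lower. The 3 GC groups then had medians of -0.12, -0.10 and -0.21 in BT-20 cells and -0.40, -0.33 and -0.34 in MDA-MB-468. By role, the kinetochore and centromere median in BT-20 moved from -0.08 to -0.22, and the spindle median in MDA-MB-468 from -0.43 to -0.27. On that scale 33 members were lower in both lines, and the correlations with GC content were -0.09 in BT-20 cells and 0.29 in MDA-MB-468. With or without this step the MDA-MB-468 median was the lower one, and the split of BT-20 depended on it. Whether the trend comes from the libraries or from the cells was not tested.

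**Figure D3:**
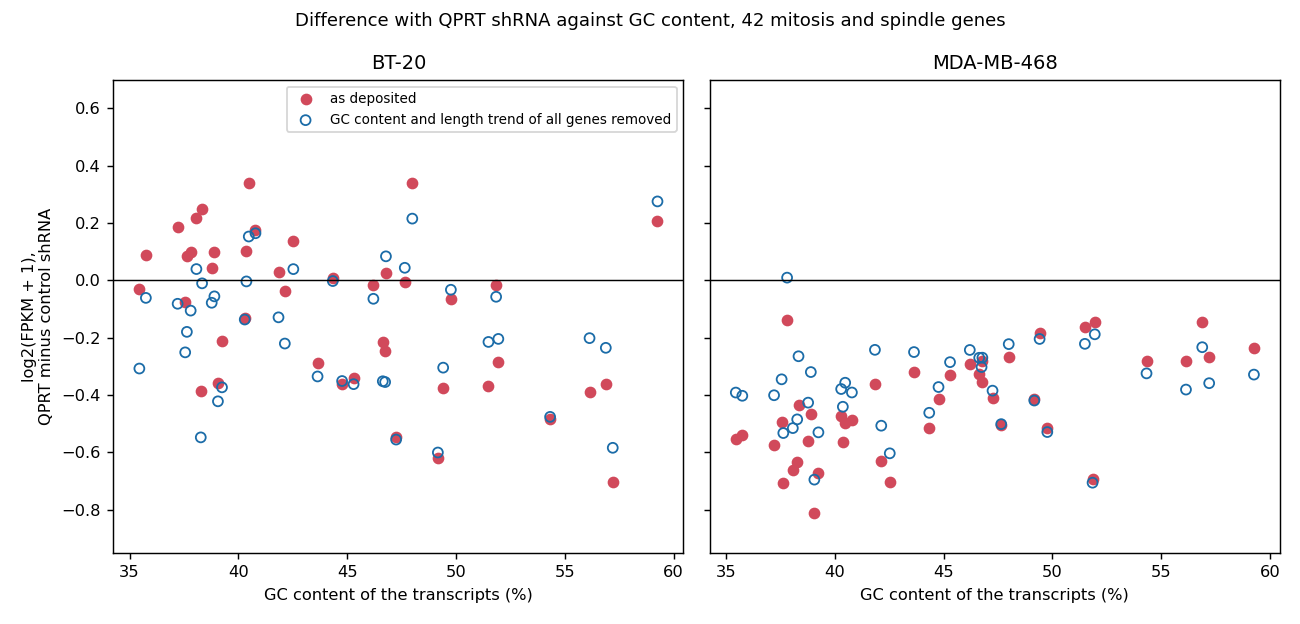
Difference in log2(FPKM + 1), QPRT minus control shRNA, of each of the 42 genes against the GC content of its transcripts in percent, for BT-20 (left) and MDA-MB-468 (right). Filled red points are values as deposited and open blue circles those with the trend of all genes on GC content and length removed; the filled points slope down in BT-20 and up in MDA-MB-468, with Spearman correlations of -0.46 and 0.60.

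The second question was how the lines differed from each other under each shRNA. With control shRNA 31 of the 42 genes were higher in MDA-MB-468 than in BT-20 cells and 11 lower, and the median log2 difference, MDA-MB-468 minus BT-20, was 0.43 against 0.12 for all genes. At least 2-fold higher were 11 members, against 18.3% of all genes, and 1 was at least 2-fold lower (FOXM1), against 13.2%. With QPRT shRNA 21 were higher and 21 lower, with a median of -0.02 against 0.07 for all genes. Then 5 members were at least 2-fold higher, against 17.4%, and 1 at least 2-fold lower, again FOXM1, against 13.9%. The median of the list thus stood above that of all genes with control shRNA and below it with QPRT shRNA. Each line comparison shares its libraries with the knockdown comparisons, and the difference between the 2 was not tested, since each group is 1 library.

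Some members kept their line difference under both shRNAs. In limma with the shRNA as a block, 21 of the 42 passed an adjusted p of 0.05, 16 of them higher in MDA-MB-468 (30.7% of all genes were called higher) and 5 lower (24.4%). The 2 cultures of a line stand in for its replicates in this test. The 1 residual degree of freedom per gene holds how far the line difference varied between the shRNAs. Its variance was moderated towards a trend over all genes, so the p-values do not measure the spread between replicate cultures. NDC80 had the lowest value, with a log2 difference of 1.36 (SE 0.208, adjusted p = 5.12e-10), and was 1.69 higher with control shRNA and 1.02 higher with QPRT shRNA on the log2 scale. KIF20A was higher by 1.30 (SE 0.218, adjusted p = 1.43e-08 in limma), BIRC5 by 1.23 (SE 0.203, adjusted p = 9.74e-09 in limma) and TTK by 1.23 (SE 0.225, adjusted p = 2.62e-07 in limma). The other members higher in MDA-MB-468 were HMMR, KIF4A, KIF11, MKI67, CDC20, KIF2C, CENPE, CDK1, KIF14, CENPF, CENPA and INCENP. The group held 4 of the 6 kinetochore and centromere genes and 5 kinesins outside that role. Lower in MDA-MB-468 were FOXM1, at -1.15 (SE 0.219, adjusted p = 8.08e-07 in limma), UBE2C at -0.86 (SE 0.194, adjusted p = 3.32e-05 in limma), CKAP2, PRC1 and AURKA.

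Last, the genes around the 42 were followed through 7 further lists of cell cycle genes, 158 in all, none of them members. Among 69 other genes of the G2 and M phases, 62 were lower with QPRT shRNA in MDA-MB-468 (median -0.31) and 35 in BT-20 (median 0.00, which is -0.02 to 0.03 under the other scalings). PSRC1, a spindle protein, was lowest of these in BT-20, with 38.8 and 19.3 FPKM there and 42.1 and 28.9 in MDA-MB-468. KIF18A, a kinesin of the kinetochore fibres, was lowest in MDA-MB-468, with 21.6 and 10.96 there and 10.2 and 12.3 in BT-20. FAM83D, which recruits casein kinase 1 to the spindle, was the highest of them in MDA-MB-468, with 49.6 and 74.9 FPKM. The 17 condensin and cohesin genes had medians of 0.22 in BT-20 (2 lower) and -0.33 in MDA-MB-468 (15 lower), which became 0.07 (5 lower) and -0.17 (16 lower) with the GC content and length trend removed. The condensin subunit SMC4 was at 36.6 and 63.9 FPKM in BT-20 cells and 55.01 and 36.4 in MDA-MB-468.

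The 21 centrosome, gamma-tubulin and augmin genes had medians of 0.15 in BT-20 (7 lower, and 0.06 without the trend) and -0.21 in MDA-MB-468 (19 lower). PLK4, the kinase that starts centriole duplication, was at 6.74 and 8.19 FPKM in BT-20 cells and 11.9 and 7.35 in MDA-MB-468. In the 18 S-phase genes BT-20 had a median of 0.25, with 1 lower and 17 higher, and MDA-MB-468 a median of -0.14, with 12 lower. RRM2, the small subunit of ribonucleotide reductase, went from 58.6 to 84.2 FPKM in BT-20 cells and from 143 to 91.4 in MDA-MB-468. The 10 genes of MuvB, B-MYB and the DREAM complex, regulators of the G2 and M programme, had medians of 0.19 (2 lower) and -0.10 (6 lower), with MYBL2 (B-MYB) at 101 and 92.1, then 64.9 and 52.4 FPKM. The 16 genes of the anaphase-promoting complex lay on both sides of 0, with a median of -0.01 in BT-20 (8 lower, range -0.41 to 0.28) and -0.04 in MDA-MB-468 (9 lower, range -0.55 to 0.54). The 7 CDK inhibitors had medians of 0.16 in BT-20 (2 lower) and 0.11 in MDA-MB-468 (2 lower; -0.01 with the GC content and length trend removed). CDKN1A, the inhibitor p21, had 19.2 and 26.2 FPKM in BT-20 cells and 34.01 and 30.96 in MDA-MB-468, and CDKN2A was listed at 0 in BT-20 control shRNA against 225 FPKM in MDA-MB-468 control shRNA. In each of the 7 lists 0 genes passed an adjusted p of 0.05 for the knockdown in limma, against 0.628% of all genes. At an unadjusted p under 0.05 were 4 of the other G2 and M genes, 1 condensin gene and 1 CDK inhibitor, against 687 of all 14321 genes. For the line difference 34 of 69, 12 of 17, 6 of 21, 9 of 18, 4 of 10, 7 of 16 and 6 of 7 passed, in the order of the lists above. Over all genes tested 7893 of 14321 passed for the line difference.

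**Figure D4:**
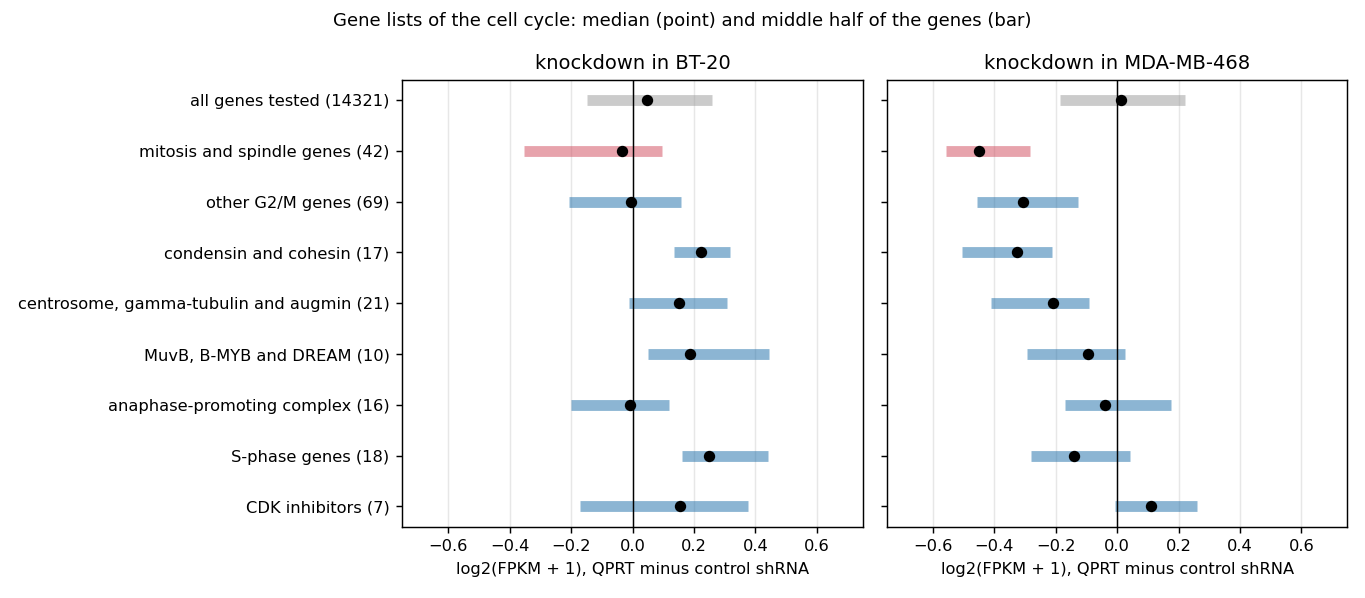
Median (point) and the range from the first to the third quartile (bar) of the difference in log2(FPKM + 1), QPRT minus control shRNA, for all genes tested, the 42 genes and the 7 other lists, in BT-20 (left) and MDA-MB-468 (right), with the number of genes in brackets. The 42 genes have the lowest median of the lists shown in both panels, -0.03 in BT-20 cells and -0.45 in MDA-MB-468.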

How the data were processed

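RNA of 4 cultures (BT-20 and MDA-MB-468 cells with control or QPRT shRNA) was sequenced by the authors, 1 library each, on an Illumina NovaSeq instrument from Illumina TruSeq RNA libraries of total RNA. The deposited table holds FPKM values, fragments divided by transcript length and library total, for 50653 Ensembl genes, made by the authors from reads trimmed of adaptors and low quality. The submitters' processing notes list FastQC, MultiQC, CASAVA, TopHat2 2.0.12 and HTSeq 0.6.1. Genome build and annotation are not given in the sources used here. The study names DESeq2, a count test, which was not run because the table holds FPKM.

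The members and all gene lists were chosen with earlier results of these data known. Symbols matched 49414 rows, and mean transcript length and GC content came from GENCODE 29 (GRCh38), with lengths for 49839. Differences are of log2(FPKM + 1), which understates those of low genes, over genes averaging 1 FPKM or more. FPKM times length, divided by the value of 1 fragment, was whole within 0.02 for 97.4% to 97.7% of the values of single-transcript genes and 87.0% to 87.5% of all. The totals that the FPKM values were scaled to (10321987 to 10945931 fragments) limit precision. Intervals are exact Clopper-Pearson 95% intervals, covering counting error only. Fragments were not counted with molecular identifiers. With 1 library per cell line and shRNA no test was made within a line.

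Both lines were fitted together in limma 3.58.1 under R 4.3.3, on log2(FPKM + 1) for all 14321 genes with cell line and shRNA as terms, eBayes with a trend and Benjamini-Hochberg adjustment, leaving 1 residual degree of freedom. The step was tested on simulated data for the knockdown over both lines: of 200 of 14321 genes changed 4-fold 100% were recovered, with 6.98% false calls. The changed genes were well covered and changed alike in both lines. The simulation therefore does not show how well differences as small as those of the members would be recovered. The trend on GC content and length was removed by lowess (fraction 0.3) over all genes. Promoters are those of RefSeq (GRCh38.p14). Alternatives were a pseudocount of 0.1, upper quartile and TPM scaling, no filter or a mean of at least 5 FPKM, a 1.5-fold threshold, the removed trend, limma without the block or the trend on expression, limma-voom, and leaving out each library. Scaling by the upper quartile of the genes tested was added after seeing the data. All 42 members are named, and of each other list at most the 2 highest and 2 lowest in a comparison with a mean of at least 5 FPKM. Each list is given by counts and medians, and the share lower and the median of all genes tested are given for comparison. The other software was Python 3.11.15 with matplotlib 3.10.9, scipy 1.17.1, numpy 2.4.6, statsmodels 0.14.6 and pandas 2.3.3.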

Additional observations from a re-analysis of the deposited data

Results flagged for a closer look

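In 5 members the difference with QPRT shRNA had opposite directions in the 2 cell lines while both counting intervals lay off 0: higher in BT-20 and lower in MDA-MB-468. The MDA-MB-468 difference minus the BT-20 difference, in log2(FPKM + 1), was -0.88 for ECT2, -0.84 for CENPF, -0.68 for KIF11, -0.56 for TOP2A and -0.44 for INCENP. With 1 library per group this contrast was not tested, and how many of all genes meet the same rule was not counted. Without the GC content and length trend of all genes, the BT-20 difference stayed above 0 for INCENP at 0.28, CENPF at 0.15 and ECT2 at 0.04, and was -0.01 for KIF11 and -0.06 for TOP2A. INCENP has the highest GC content of the 42 members, 59.3%.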

How the results depend on the processing

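Of 148 alternative values, 135 kept their place and 13 moved. This tally does not measure how stable the results are. No shift of a median was counted as a move. The BT-20 median of -0.03 counted as kept at 0.01 (TPM scaling) and at -0.16 (GC content and length trend removed). The first of these has the opposite sign. Both lie in an interval of that median over the 42 genes, -0.22 to 0.03. Such an interval treats genes of the same libraries as independent. Many kept values were 0 in both settings. At a 1.5-fold in place of a 2-fold threshold, 8 members were past it and lower in MDA-MB-468 and 2 in BT-20. Between the lines 18 were then higher and 2 lower with control shRNA, and 11 higher and 5 lower with QPRT shRNA. With the GC content and length trend removed 34 members were lower in BT-20, against 25. Upper quartile scaling left 2 members at least 2-fold higher in MDA-MB-468 with QPRT shRNA, against 5. For the line difference, limma without a filter called 0 members, against 21. Leaving out 1 library in turn, without the shRNA block, limma called 5 to 13: 5 without BT-20 control, 6 without BT-20 QPRT, 8 without MDA-MB-468 control and 13 without MDA-MB-468 QPRT shRNA. The lone library is then assumed to vary like the pair. For the knockdown, run the same way without the cell line block, 0 members were called with any 1 library left out, and 0 had an unadjusted p under 0.05. With the block such a fit leaves no residual degree of freedom. The cause of these moves was not tested. The labels carry no replicate numbers, and the pairing within a cell line is the block of the knockdown fit, which called 0 members with and without it.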
